A study of Mus musculus with 6 samples.

Results

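The proteasome subunits described here are the 41 genes of 17022 gene names whose name is Psma, Psmb, Psmc, Psmd or Psme followed by a number, each taken as the sum of its isoforms. Of these, 36 are constitutive subunits, regulatory partners or assembly chaperones, and 5 (Psmb8, Psmb9, Psmb10, Psme1 and Psme2) belong to the immunoproteasome. The RNA came from sensory neurons that were laser microdissected from lumbar dorsal root ganglia (levels 3, 4 and 5) of male C57Bl/6 mice, aged 4 to 6 weeks and called adult in the labels, 7 days after an operation. In the crush group the sciatic nerve had been crushed for 10 seconds, and in the sham group the nerve had been exposed for 10 seconds without a crush; ganglia were taken from the operated side in both. Each group had 3 libraries of polyadenylated RNA, called crush 1 to 3 and sham 1 to 3. The sources do not say whether each library came from different animals or from a pool, so p-values cover the spread among these libraries alone, and that spread may be technical. In such tissue RNA, fewer cells of a type and less RNA per cell cannot be told apart.

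The proteasome is the protease complex that degrades most ubiquitin-tagged proteins of a cell. Its core particle is a barrel of outer alpha rings, which gate the entrance, and inner beta rings, which carry the proteolytic sites; a regulatory particle with ATP-driven unfoldases and ubiquitin receptors feeds substrates in. Interferon and inflammatory signals induce alternative catalytic subunits and the activator formed by Psme1 and Psme2, which together favour the production of peptides for MHC class I. Ubiquitin-dependent protein turnover has long been studied in injured axons, which is the setting of a nerve crush.

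The levels are FPKM, fragment counts divided by transcript length and by the mapped total of the library, as the authors computed them, so levels can be compared between genes but the depth of each library is unknown. Summed over the 36 constitutive genes, the level was 2621, 2532 and 2874 FPKM in crush 1 to 3, against 2588, 3400 and 2634 FPKM in sham 1 to 3. The sham 2 library stood above the other 5, which overlapped between the groups. The constitutive genes held 0.801% to 0.849% of all FPKM in the crush libraries and 0.807%, 0.932% and 0.820% in sham 1 to 3. Over the whole table sham 2 also stood apart: its weight in a fit with sample weights was 0.162, against 0.897 to 2.86 for the others except crush 3 (0.736).

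No proteasome subunit changed detectably 7 days after the crush. Of the 40 members with a mean of at least 1 FPKM, 0 passed the limma test on log2(FPKM + 1) with Benjamini-Hochberg adjustment over all 12289 genes tested (adjusted p from 0.232 to 0.990), whereas the background of genes called in the same comparison was 3.78%, or 464 genes (293, or 2.38%, higher and 171, or 1.39%, lower after crush). At an unadjusted p under 0.05 there was 1 member, Psmd11, against 17.6% of all genes. The log2 changes of the members, crush minus sham, lay between -0.29 (Psmb9) and 0.23 (Psmd11), with a median of -0.11 beside -0.02 over all genes tested. The 95% intervals of limma, which are not adjusted for the number of members, lay within a 1.5-fold change in either direction for 35 of the 40. The 5 whose intervals reached beyond a 1.5-fold change were Psmb3, Psmb4, Psmb9, Psmb10 and Psme1.

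A negative sign was found in 33 of the 40 members, against 54.1% of all genes, and the count moved with the libraries used. Without sham 2, 24 members were positive and 16 negative, against 6574 of all 12289 genes negative. The median of the members was 0.02, and 17 members changed sign. Without both crush 3 and sham 2, 10 were positive and 30 negative, against 6696 of all genes negative. Without sham 2 alone, still 0 of the 40 passed limma, with 0 at an unadjusted p under 0.05 against 25.6% of all genes. The share of all genes called in that fit was 9.55% (4.94% higher and 4.61% lower), and all 40 intervals lay within 1.5-fold. Without both crush 3 and sham 2, 0 passed and 2 were at an unadjusted p under 0.05, against 3541 of all 12289 genes. In that fit 38 of the 40 intervals lay within 1.5-fold. The crush and sham values did not overlap in 2 members, Psmd11 (higher) and Psmd5 (lower), against 26.3% of all genes.

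**Figure D1:**
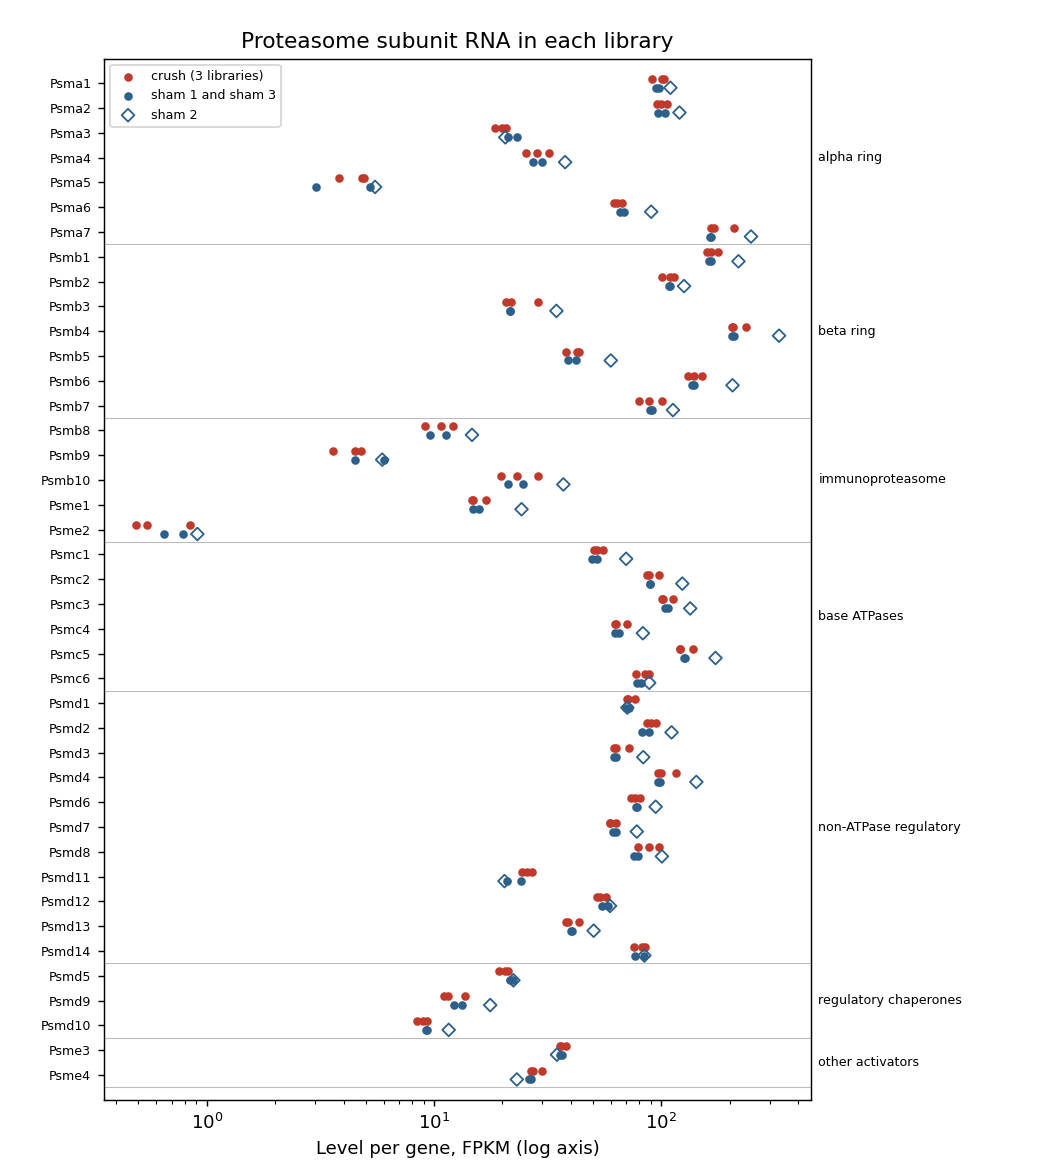
FPKM of each of the 41 genes in each library on a log axis, grouped by role, with crush libraries (red) above sham libraries (blue) in each row and sham 2 as an open diamond. Red and blue points overlap in every row except those of Psmd11 and Psmd5, and the diamond is the highest of the 6 libraries in 33 of the 41 genes.

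In the alpha ring, 0 of 7 genes passed (median log2 change -0.09, and 0.00 without sham 2). Psma5 had the most positive change of the ring. Its level was 4.91, 4.81 and 3.83 FPKM in crush 1 to 3, against 5.25, 5.50 and 3.01 FPKM in sham 1 to 3, so the groups overlapped (log2 change 0.01, 95% interval -0.46 to 0.47, limma adjusted p = 0.990). Psma6 had the most negative change of the ring. It had 63.6, 62.0 and 67.6 FPKM in the crush libraries, against 65.7, 90.3 and 68.4 FPKM in the sham libraries (-0.20, 95% interval -0.50 to 0.10, limma adjusted p = 0.479). Only sham 2 was far from the other 5 values of Psma6, and without it the change was -0.06. Psma7 was the most abundant alpha gene, at 171, 166 and 209 FPKM in crush 1 to 3, against 164, 248 and 166 FPKM in sham 1 to 3; 81.9% of its exon length is also covered by Ss18l1 on the opposite strand, and nothing says that strand was recorded, so its level is uncertain.

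In the beta ring, 0 of 7 genes passed (median -0.12, and 0.03 without sham 2). Psmb4, a structural beta subunit, was the most abundant of all 41 genes. Its level was 205, 207 and 235 FPKM in crush 1 to 3, against 204, 330 and 209 FPKM in sham 1 to 3. Sham 2 was the highest library by far and the other 5 overlapped. The log2 change of -0.16 (95% interval -0.62 to 0.29, limma adjusted p = 0.732) was the most negative of the ring, and it was 0.06 without sham 2. Psmb2, also a structural subunit, had the change nearest to 0 in the ring (-0.08, 95% interval -0.29 to 0.13, limma adjusted p = 0.717). It had 101, 109 and 114 FPKM in crush 1 to 3, against 108, 126 and 109 FPKM in sham 1 to 3.

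The 3 constitutive catalytic subunits showed the same picture. Psmb5, which carries the chymotrypsin-like site, had 42.6, 38.1 and 43.4 FPKM in crush 1 to 3, against 38.7, 60.0 and 42.1 FPKM in sham 1 to 3. Psmb6, with the caspase-like site, had 139, 132 and 152 FPKM in the crush libraries, against 139, 206 and 136 FPKM in the sham libraries. Psmb7, with the trypsin-like site, had 88.8, 80.3 and 101 FPKM in the crush libraries, against 89.5, 113 and 91.5 FPKM in the sham libraries. In each of them sham 2 was the highest library and the other 5 overlapped. Their log2 changes were -0.15, -0.16 and -0.12 in that order, with limma adjusted p of 0.697, 0.689 and 0.689.

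Of the 5 immunoproteasome genes 4 could be tested and 0 passed (median log2 change -0.19, and 0.02 without sham 2). Psmb8, the inducible counterpart of Psmb5, had 10.7, 9.10 and 12.1 FPKM in crush 1 to 3, against 9.64, 14.7 and 11.3 FPKM in sham 1 to 3 (log2 change -0.13, 95% interval -0.52 to 0.25, limma adjusted p = 0.743). Psmb9, the inducible counterpart of Psmb6, had 4.76, 3.60 and 4.51 FPKM in the crush libraries, against 4.50, 5.92 and 6.04 FPKM in the sham libraries. This was the most negative change of all members (-0.29, 95% interval -0.60 to 0.02, limma adjusted p = 0.316), with sham 1 lying inside the range of the crush libraries, and it was -0.24 without sham 2. Psmb9 shares 39.0% of its exon length with Tap1, the peptide transporter gene on the opposite strand, so its value is uncertain.

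Psmb10, the inducible counterpart of Psmb7, had 23.1, 19.8 and 28.6 FPKM in crush 1 to 3, against 21.2, 37.1 and 24.7 FPKM in sham 1 to 3. Sham 2 was again the highest, and the interval of the log2 change was the widest on the negative side among members (-0.18, 95% interval -0.70 to 0.34, limma adjusted p = 0.744; 0.04 without sham 2). Its exons overlap other genes of the same strand over 57.9% of their length, 34.9% with Ctrl, so that reads could be split between them. Psme1, a subunit of the interferon-induced activator, had 14.7, 14.8 and 16.9 FPKM in the crush libraries, against 15.8, 24.3 and 14.8 FPKM in the sham libraries (-0.20, 95% interval -0.62 to 0.23, limma adjusted p = 0.641; 0.01 without sham 2). Psme2, its partner in the same ring, was the only member under 1 FPKM and was not tested. It had 0.489, 0.841 and 0.544 FPKM in crush 1 to 3, against 0.646, 0.909 and 0.787 FPKM in sham 1 to 3, and 99.8% of its exon length is also covered by Rnf31 on the opposite strand.

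In the mm9 build, used in the authors' exon file, Psmb8 spans chromosome 17 from 34334591 to 34338389 on the plus strand, Psmb9 chromosome 17 from 34319026 to 34324471 on the minus strand, Psmb5 chromosome 14 from 55232992 to 55237069 on the minus strand and Psmb6 chromosome 11 from 70338803 to 70341107 on the plus strand. The 250 bases before the annotated start of these genes (RefSeq, build GRCm38.p6) show how the inducible genes and their constitutive counterparts differ in their letters. The windows are chr17:34197945-34198194 (plus strand) for Psmb8, chr14:54617996-54618245 (minus strand) for Psmb5, chr17:34187331-34187580 (minus strand) for Psmb9 and chr11:70525107-70525356 (plus strand) for Psmb6, each written 5′ to 3′ on the strand of its gene.
Psmb8: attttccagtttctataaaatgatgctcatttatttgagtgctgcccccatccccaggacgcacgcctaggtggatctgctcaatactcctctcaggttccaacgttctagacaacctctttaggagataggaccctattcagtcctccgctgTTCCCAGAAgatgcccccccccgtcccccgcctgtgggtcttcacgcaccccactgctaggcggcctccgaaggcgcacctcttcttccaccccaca
Psmb5: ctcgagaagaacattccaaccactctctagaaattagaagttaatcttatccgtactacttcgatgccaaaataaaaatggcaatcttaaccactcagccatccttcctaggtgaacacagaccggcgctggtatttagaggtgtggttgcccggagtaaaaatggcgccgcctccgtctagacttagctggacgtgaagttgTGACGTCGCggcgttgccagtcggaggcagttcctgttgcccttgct
Psmb9: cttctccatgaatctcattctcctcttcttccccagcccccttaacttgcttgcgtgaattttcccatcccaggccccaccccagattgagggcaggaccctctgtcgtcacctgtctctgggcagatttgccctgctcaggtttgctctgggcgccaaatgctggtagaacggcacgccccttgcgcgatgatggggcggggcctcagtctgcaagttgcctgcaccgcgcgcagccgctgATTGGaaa
Psmb6: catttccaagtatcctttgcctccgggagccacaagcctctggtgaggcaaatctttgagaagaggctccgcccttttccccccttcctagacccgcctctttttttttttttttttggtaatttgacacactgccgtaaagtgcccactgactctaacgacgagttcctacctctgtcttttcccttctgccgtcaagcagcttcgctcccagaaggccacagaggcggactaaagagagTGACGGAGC
Capitals mark matches to 4 motifs searched on both strands, which did not overlap in these windows: the interferon gamma activation site TTCNNNGAA in Psmb8, the antioxidant response element TGACNNNGC in Psmb5 and Psmb6, and the CCAAT box in Psmb9, where it lies on the other strand. The interferon-stimulated response element, searched as GAAA, any 2 bases and GAAA, had no match in these 4 windows.

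Windows were found for 35 of the 41 members, 30 constitutive and 5 inducible. These members had 38 windows and are counted per gene below, whereas the shares beside them are per window. TTCNNNGAA was found in 1 of the 5 inducible genes (Psmb8) and in 0 of the 30 constitutive genes, against 7.02% of all 32851 windows of this length. TGACNNNGC was found in 5 of the 30 constitutive genes, Psmb5, Psmb6, Psmc6, Psmd12 and Psmd9, and in 0 of the 5 inducible genes, against 10.2% of all windows. The interferon-stimulated response element was found in 3 of 30 constitutive genes and 0 of 5 inducible genes, against 2.98% of all windows, and CCAAT in 12 of 30 and 1 of 5, against 33.8%. These matches describe letters only, and none of the genes that hold them passed the test between crush and sham.

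The exchange of catalytic subunits was followed as the level of each inducible subunit in percent of the constitutive subunit it replaces. Psmb8 reached 25.2%, 23.9% and 27.9% of Psmb5 in crush 1 to 3, against 24.9%, 24.5% and 26.8% in sham 1 to 3. The means of 25.7% ± 2.03 in crush and 25.4% ± 1.24 in sham (SD, n = 3 each) differed by less than the spread between libraries (exact 2-sided permutation test, p = 0.9). Psmb9 reached 3.42%, 2.74% and 2.97% of Psmb6 in crush, against 3.23%, 2.87% and 4.43% in sham (3.04% ± 0.348 and 3.51% ± 0.817, exact permutation p = 0.6).

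Psmb10 reached 26.0%, 24.6% and 28.4% of Psmb7 in crush, against 23.7%, 32.9% and 26.9% in sham (26.4% ± 1.90 and 27.8% ± 4.69, exact permutation p = 0.8). After Benjamini-Hochberg adjustment over these 3 ratios every p was 0.9, and 3 libraries against 3 cannot give an exact p below 0.1. All 5 inducible genes together amounted to 2.05%, 1.90% and 2.18% of the constitutive sum in crush 1 to 3, against 2.001%, 2.44% and 2.19% in sham 1 to 3, and the groups overlapped.

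**Figure D2:**
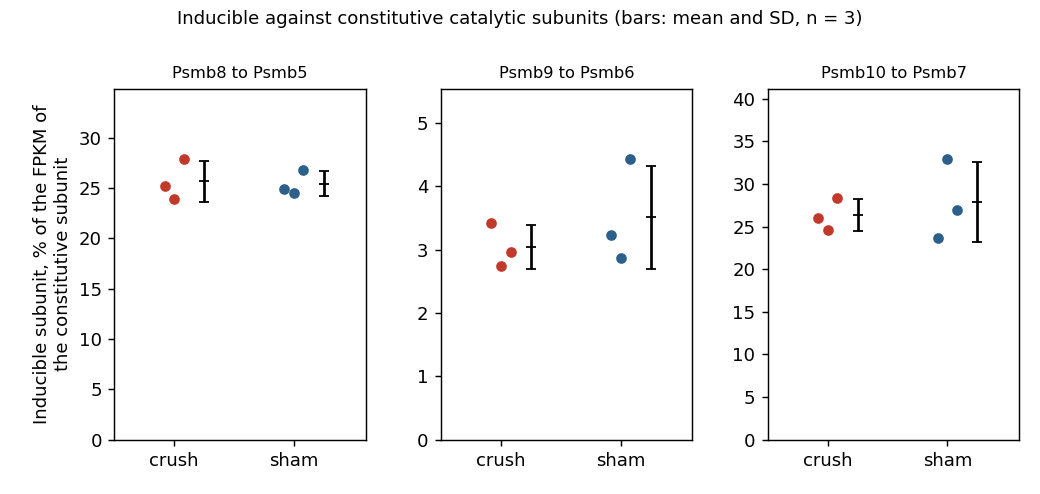
Level of each inducible catalytic subunit in percent of the FPKM of its constitutive counterpart, with 1 point per library, crush on the left and sham on the right, and bars for mean and SD (n = 3). The groups overlap in all 3 panels, with means of 25.7% and 25.4% for Psmb8, 3.04% and 3.51% for Psmb9 and 26.4% and 27.8% for Psmb10.

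Of the 6 ATPases that form the base of the regulatory particle and unfold substrates, 0 passed (median log2 change -0.12, and 0.03 without sham 2). Psmc6 had 84.7, 77.2 and 88.6 FPKM in crush 1 to 3, against 78.6, 88.6 and 81.6 FPKM in sham 1 to 3, the most positive change of the 6 (0.01, 95% interval -0.19 to 0.21, limma adjusted p = 0.969). Psmc5 had 121, 120.4 and 138 FPKM in the crush libraries, against 127, 173 and 125 FPKM in the sham libraries, the most negative (-0.15, 95% interval -0.48 to 0.18, limma adjusted p = 0.646, and 0.00 without sham 2). Psmc5 shares 73.3% of its exon length with genes on the opposite strand, 65.5% with Smarcd2, and its level is uncertain for that reason.

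Among the 11 non-ATPase subunits of the regulatory particle 0 passed (median -0.07, and 0.04 without sham 2). Psmd11, a lid subunit that helps to hold the regulatory particle on the core, had the most positive change of all members. Its level was 24.4, 25.7 and 27.1 FPKM in crush 1 to 3, against 20.9, 20.4 and 24.3 FPKM in sham 1 to 3. Every crush library was above every sham library, though crush 1 and sham 3 differed by little. The log2 change was 0.23 (95% interval 0.02 to 0.43, unadjusted p = 0.033), which did not pass after adjustment over all genes (limma adjusted p = 0.232). It kept its sign in all alternatives in which it could be tested, with limma adjusted p from 0.116 to 0.496.

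Psmd7, a structural lid subunit that pairs with the deubiquitinase Psmd14, had the most negative change of the 11. It had 59.6, 59.4 and 63.2 FPKM in crush 1 to 3, against 61.6, 78.1 and 63.5 FPKM in sham 1 to 3 (-0.15, 95% interval -0.39 to 0.09, limma adjusted p = 0.519). Sham 2 was the highest library by far, and without it the change was -0.04. Psmd14 itself, which removes ubiquitin chains from substrates, had 81.9, 75.7 and 84.9 FPKM in the crush libraries, against 84.0, 84.3 and 77.0 FPKM in the sham libraries. Psmd1, the large scaffold subunit of the base, was among the steadiest genes, at 76.7, 70.8 and 71.5 FPKM in crush and 72.1, 71.0 and 69.9 FPKM in sham (0.04, 95% interval -0.11 to 0.19, limma adjusted p = 0.818).

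The 3 chaperones that help to assemble the base and are not part of the finished complex had negative changes and 0 passed (median -0.15, and -0.08 without sham 2). Psmd5 had 20.6, 19.4 and 21.2 FPKM in crush 1 to 3, against 22.2, 22.4 and 21.6 FPKM in sham 1 to 3. The groups did not overlap, but the gap between crush 3 and sham 3 was small against the range of the crush libraries (log2 change -0.11, 95% interval -0.26 to 0.04, limma adjusted p = 0.441). Psmd9 had 11.1, 11.5 and 13.6 FPKM in the crush libraries, against 12.3, 17.7 and 13.3 FPKM in the sham libraries, overlapping through crush 3 (-0.23, 95% interval -0.57 to 0.11, limma adjusted p = 0.476; -0.08 without sham 2).

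Of the other activators, Psme3, which caps core particles in the nucleus, had 35.9, 36.2 and 38.0 FPKM in crush 1 to 3, against 35.9, 34.8 and 36.7 FPKM in sham 1 to 3 (0.03, 95% interval -0.11 to 0.18, limma adjusted p = 0.825). Psme4, a single large chain that also caps the core, had 29.8, 27.4 and 26.7 FPKM in crush, against 26.1, 23.2 and 26.7 FPKM in sham (0.14, 95% interval -0.05 to 0.33, limma adjusted p = 0.445). These 2 genes differ from most members in that sham 2 was the lowest library for both.

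**Figure D3:**
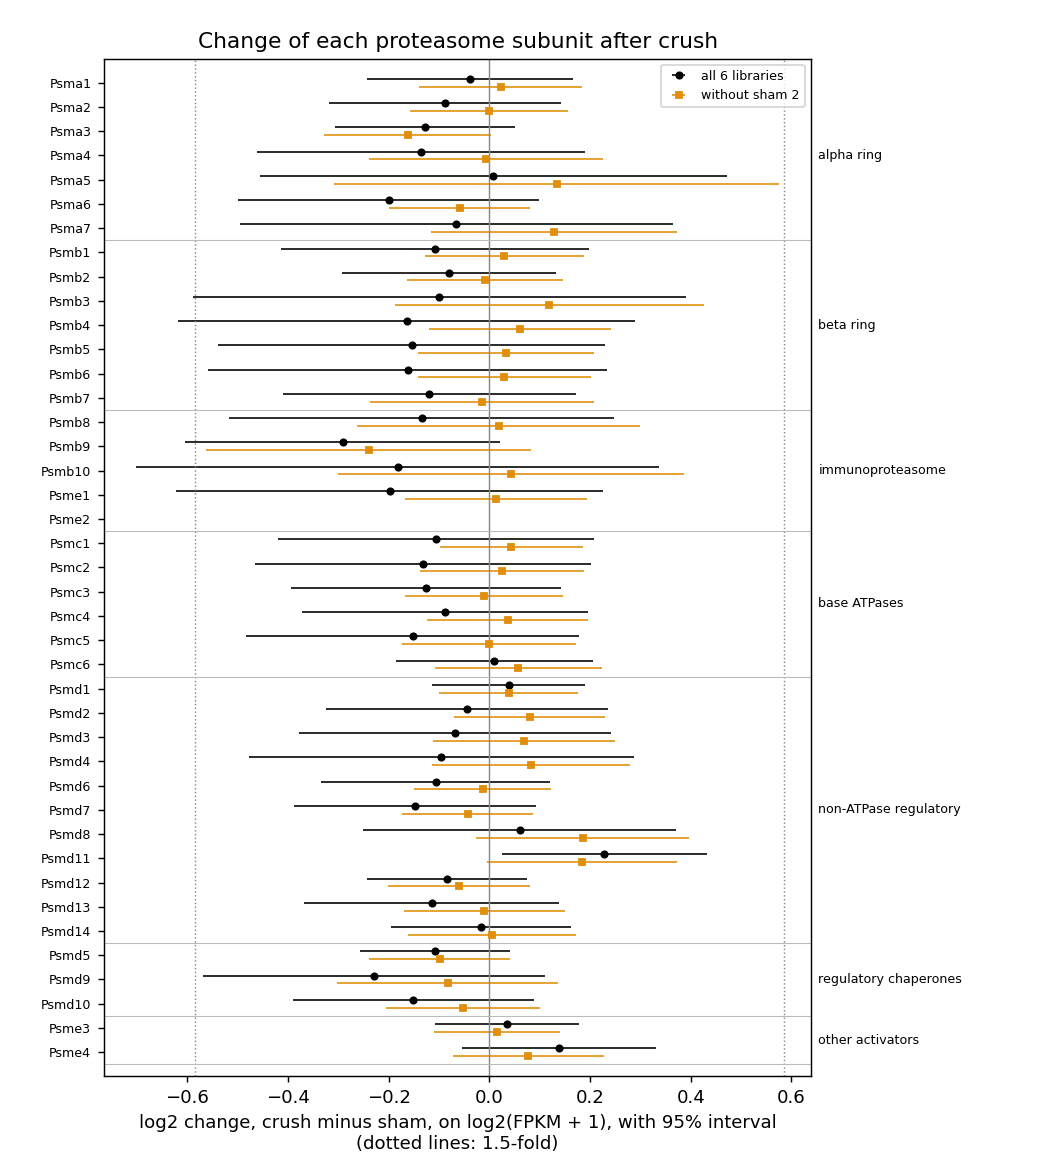
Fitted log2 change of each gene, crush minus sham, on the log2(FPKM + 1) scale with its 95% interval, from all 6 libraries (black) and without sham 2 (orange); dotted lines mark a 1.5-fold change and Psme2 was not tested. Most black points lie left of 0 (33 of 40), the orange points spread around 0 (24 positive, 16 negative), and all 40 orange intervals lie inside the dotted lines.

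The height of sham 2 fell with transcript length over all genes tested, and in the members it was lower above 2000 bases than below. Sham 2 was the highest of the 6 libraries in 33 of the 41 members (80.5%), against 35.1% of all genes tested. Measured as the log2(FPKM + 1) of 1 library minus the mean of the other libraries of its group, crush 3 stood 0.13 above the other crush libraries in the median member, and sham 2 stood 0.37 above the other sham libraries. The same medians over all genes tested were 0.02 and 0.01. The members are short: their median length was 1429 bases, against 2963 bases for all genes tested, and 77.5% of the tested members, against 28.1% of genes, were shorter than 2000 bases.

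For all 972 genes under 1000 bases the sham 2 deviation had a median of 0.46, and for the 3770 genes over 4000 bases it was -0.20. In the members it was 0.39 for the 31 genes under 2000 bases and 0.03 for the 9 longer ones. Psme4, the longest member at 4599 bases, had -0.18. Among genes of at least 20 FPKM with 1000 to 2000 bases, the median was 0.29 over 953 genes and 0.38 over the 23 members of this length. The pattern in crush 3 had the same direction and was smaller, with medians of 0.19 under 1000 bases and -0.07 over 4000 bases.

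When the deviation with length was subtracted from every library, 0 members passed limma (background 7.94%). The median log2 change was -0.04, beside -0.001 over all genes. In this fit 13 of the 40 members were positive, against 6105 of all 12289 genes, and all 4 tested immunoproteasome genes were negative. Without both crush 3 and sham 2, 0 passed (background 13.1%), and the median was -0.03, beside -0.02 over all genes. Here 30 of the 40 members were negative, against 6696 of all 12289 genes, with all 4 tested immunoproteasome genes among the 30.

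**Figure D4:**
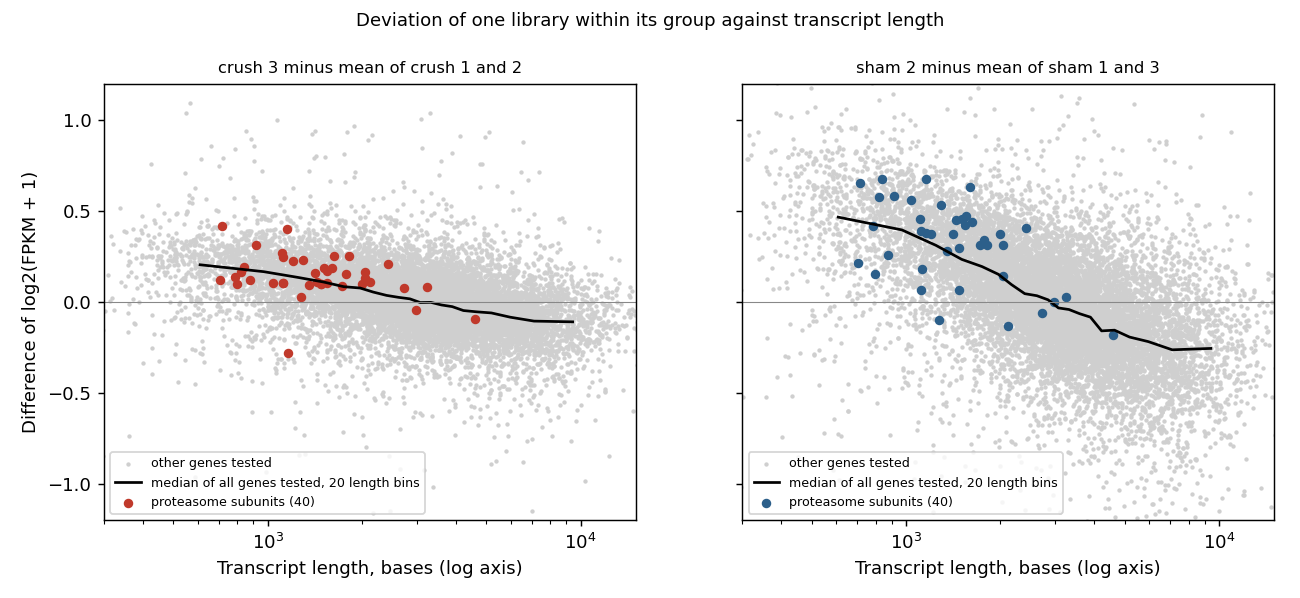
Deviation of crush 3 (left) and sham 2 (right) from the mean of the other 2 libraries of the group, as a difference of log2(FPKM + 1), against transcript length on a log axis; coloured points are the 40 tested proteasome genes, grey points the other genes tested (those outside the axes are not drawn) and the line the median of 20 length bins. The line falls with length in both panels and more steeply for sham 2, and the proteasome genes cluster at the short end with medians of 0.13 for crush 3 and 0.37 for sham 2.

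At the level of isoforms the members held 151 assembled or annotated transcripts, with up to 9 for a gene and 1 only for 5 genes. Of the 93 with a mean of at least 1 FPKM, 0 passed limma (lowest adjusted p = 0.502, 1 at an unadjusted p under 0.05 against 9.12% of all isoforms), beside a background of 0.0613%, or 15 of 24485 isoforms, so few were called anywhere. That isoform was Psmd11_j6, the main one of its gene. It had 15.3, 15.5 and 16.3 FPKM in crush 1 to 3, against 12.7, 10.6 and 14.1 FPKM in sham 1 to 3 (log2 change 0.32). A change in the proportions of isoforms was called for 0 of 31 members by limma's diffSplice (1 at an unadjusted p under 0.05, against 5.38% of genes), beside 0.445% of 6746 genes.

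The smallest p of that test was that of Psmd14 (unadjusted p = 0.0305, diffSplice adjusted p = 0.815). Its isoform Psmd14_j2 had 12.9, 11.1 and 10.8 FPKM in crush 1 to 3, against 6.10, 0 and 5.75 FPKM in sham 1 to 3. All crush libraries were above all sham libraries for this isoform, also without sham 2, where it is listed at 0, although the groups overlapped in the total of the gene. It was named because its gene had the smallest p of the test. The share of all isoforms without overlap was not computed. The isoform did not pass by itself (limma adjusted p = 0.572).

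The authors' deposited table of pooled groups marked 6 of the 98 member isoforms it tested as significant (6.12%, against 15.1% of all isoforms tested there), each higher after crush. In the authors' deposited table the most abundant of the 6 was Psmc6_j1, with 27.9 FPKM in the crush group and 20.1 FPKM in the sham group (log2 fold change 0.48, q = 0.0365). The same table lists this isoform in single libraries at 4.97, 5.32 and 10.4 FPKM in crush 1 to 3, against 2.77, 15.0 and 6.11 FPKM in sham 1 to 3, means of 6.91 and 7.96 FPKM. The single libraries overlapped and their means have the opposite direction from the authors' pooled values. The other 5, isoforms of Psme3, Psmd11, Psma3, Psmd2 and Psmb7, were at most 1.53 FPKM in either group of the authors' deposited table. In single libraries the Psma3 isoform also had the opposite direction, with means of 1.66 FPKM in crush and 2.31 FPKM in sham. The isoforms of Psme3, Psmd11, Psmd2 and Psmb7 had higher means in crush. Those of Psmd11 and Psmd2 were at 0 in every sham library, and their crush means rest mainly on 1 library each. The Psmd11 isoform had 0, 0.225 and 0 FPKM in crush 1 to 3, and the Psmd2 isoform 0.186, 0 and 1.58 FPKM. The groups did not overlap for the isoforms of Psme3 (means 0.445 and 0.284 FPKM) and Psmb7 (0.714 and 0.180 FPKM). Both had means under 1 FPKM and were picked by calls on these same libraries. The share of all isoforms without overlap was not computed, so no support is drawn from this.

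Genes that act with the proteasome likewise showed no called change. Since 3.78% of all genes were called, 0 calls are near that share in lists this short. Of 21 tested assembly factors, inhibitors and associated proteins 0 passed limma in either direction (median log2 change -0.04). At an unadjusted p under 0.05 there were 0, against 17.6% of all genes. The smallest adjusted p among them was that of Zfand2a, a stress-induced proteasome-associated protein, at 20.4, 20.6 and 20.2 FPKM in crush 1 to 3, against 19.6, 17.2 and 18.8 FPKM in sham 1 to 3 (0.13, limma adjusted p = 0.383). Pomp, the chaperone of core particle assembly, had 109, 103 and 128 FPKM in crush, against 102, 165 and 114 FPKM in sham, with sham 2 highest as in the beta subunits. Usp14, a deubiquitinase that binds the regulatory particle, had 72.2, 72.5 and 71.1 FPKM in crush, against 78.9, 71.8 and 77.5 FPKM in sham (limma adjusted p = 0.608).

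Of 8 regulators of proteasome genes 0 passed (3 at an unadjusted p under 0.05, against 17.6% of all genes, median 0.03), and 4 had groups that did not overlap, against 26.3% of all genes. Keap1, the adaptor that marks the transcription factor Nfe2l2 for degradation, had 18.7, 18.1 and 18.7 FPKM in crush 1 to 3, against 20.4, 22.5 and 20.8 FPKM in sham 1 to 3 (-0.19, limma adjusted p = 0.199). Nfe2l1, the transcription factor that raises proteasome genes when proteasome activity is short, was abundant, at 159, 156 and 160.0 FPKM in crush, against 179, 179 and 174 FPKM in sham. All crush libraries lay below all sham libraries, and the difference of -0.16 on the log2 scale did not pass (limma adjusted p = 0.257; -0.15 without sham 2).

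Mafk, a small Maf protein that pairs with Nfe2l1 and Nfe2l2 on DNA, had 5.99, 6.33 and 6.01 FPKM in crush 1 to 3, against 4.80, 5.50 and 5.35 FPKM in sham 1 to 3, again with groups apart (0.20, limma adjusted p = 0.233). It was the 1 of 8 regulators called with sample weights, a fit that called 1429 of all 12289 genes, which is a similar share. Nfe2l2 had 21.99, 21.7 and 21.8 FPKM in crush, against 20.6, 19.5 and 21.0 FPKM in sham (0.10, limma adjusted p = 0.462). Of 8 tested ubiquitin precursors, activating enzymes and recycling enzymes 0 passed (median -0.04), against 3.78% of all genes. At an unadjusted p under 0.05 there were 0, against 17.6% of all genes. The smallest adjusted p among these 8 was that of Uchl3, a ubiquitin hydrolase, at 0.433 (limma; log2 change -0.23).

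Around the immunoproteasome, 0 of 12 genes of MHC class I loading passed (median -0.13), against 3.78% of all genes. At an unadjusted p under 0.05 there were 0, against 17.6% of all genes. The smallest limma adjusted p of these 12 was 0.402 for Tapbp, the chaperone of the peptide-loading complex. B2m, the light chain of class I molecules, had 77.1, 57.7 and 72.9 FPKM in crush 1 to 3, against 71.5, 67.0 and 68.3 FPKM in sham 1 to 3, with the sham libraries inside the range of the crush libraries. Of 19 interferon response genes 0 passed, with 1 at an unadjusted p under 0.05, against 17.6% of all genes. Their median log2 change was 0.14, and -0.01 without sham 2. The smallest limma adjusted p was 0.208 for Stat2, a transcription factor of interferon signalling (log2 change 0.20). Without sham 2, where 4.94% of all genes were called higher, 2 of the 19 rose: Bst2 (log2 change 0.53, limma adjusted p = 0.0227) and Ifi35 (0.40, limma adjusted p = 0.0249).

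Markers of cells other than neurons were detected in all libraries. Of 17 tested macrophage markers 13 rose after crush (median log2 change 0.85), against 2.38% of all genes called higher. Ctss, C1qc and Mrc1 shared the smallest limma adjusted p (0.00509). The summed level of the list was 329 to 365 FPKM in crush libraries, against 173 to 222 FPKM in sham libraries. The count was 7 without crush 1 or without crush 2, 8 without crush 3, sham 1 or sham 3, and 17 without sham 2. Of all 12289 genes, 43 were called higher without crush 1, 69 without crush 2 and 76 without crush 3. The same number was 98 without sham 1, 607 (4.94%) without sham 2 and 64 without sham 3. No marker of the list was at 0 in all libraries. Macrophages are known to express immunoproteasome subunits, whose summed level was 48.2 to 62.7 FPKM in crush libraries and 51.8 to 82.9 FPKM in sham libraries; the part of macrophages in the inducible subunits was not tested.

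Satellite and Schwann glia markers (0 of 13 passed, 4 at an unadjusted p under 0.05, against 17.6% of all genes) summed to 3158 to 3459 FPKM in crush and 3061 to 4223 FPKM in sham, with Prx at the smallest limma adjusted p (0.0958). Endothelial and fibroblast markers (0 of 12 passed, 5 at an unadjusted p under 0.05, against the same 17.6%) summed to 199 to 209 FPKM in crush and 137 to 175 FPKM in sham, with Lum at the smallest (0.0961). Without sham 2, 2 genes rose in the glia list and 2 in the endothelial and fibroblast list, against 4.94% of all genes. Lymphocyte markers summed to 0.928 to 1.55 FPKM in crush and 0.637 to 0.667 FPKM in sham, and none could be tested. Neuron markers summed to 8739 to 9836 FPKM in crush and 9077 to 11385 FPKM in sham, so markers of the labelled cell type were high in all libraries. Of 17 neuron markers 2 fell, against 1.39% of all genes called lower. They were the neurofilament genes Nefh (limma adjusted p = 0.0147) and Nefm (0.0486). The count was 0 without crush 1, crush 2, sham 1 or sham 3, and 1 without crush 3. Without sham 2 there were 3 falls and 1 rise, against 4.61% of all genes lower and 4.94% higher.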

How the data were processed

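Groups were read from the sample titles. The submitters' processing notes name build mm9, Cuffdiff 1.2.1, Cufflinks 1.1.0 and TopHat 1.3.2, without their roles. Values are the authors' deposited FPKM per isoform and library, with the authors' pooled-group FPKM, log2 fold change, p-value and q-value beside them. FPKM keeps no read counts, so the depth is unknown and counting intervals were not possible.

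FPKM was summed over the isoforms of a gene name. Features averaging 1 FPKM or more entered limma (3.58.1, R 4.3.3) on the log2(FPKM + 1) scale (variance trend, 2-sided, Benjamini-Hochberg over all features, threshold 0.05). This scale understates changes of low genes. Isoform proportions were tested with diffSplice, and the 3 subunit ratios with exact permutation tests. Scripts were tested on simulated data. Transcript length is the FPKM-weighted mean over isoforms. Exon overlap came from the authors' exon file, and promoter windows from RefSeq (GRCm38.p6), whose coordinates were not mixed with mm9.

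Members, gene lists and tests were chosen with earlier results of these data known. Named genes are the extremes of each role, all inducible genes with their counterparts, and the smallest adjusted p of each list. Psma7, Psmb4, Psmd1, Psmd14, Pomp, Usp14, Mafk, Nfe2l1, Nfe2l2, B2m, Bst2 and Ifi35 were named for abundance, role or calls, with their values known. Alternatives were pseudocount, filters, reference isoforms, status, scaling, weights, trend, replicate block and leaving out libraries. Leaving out crush 3 with sham 2, and the length correction, were added after seeing the data.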

Additional observations from a re-analysis of the deposited data

How the results depend on the processing

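The count of called proteasome genes was 0 under every alternative run. The count of called proteasome isoforms was 0 under those run for isoforms, which leave out the choices of annotated isoforms and of status. Where they could be computed, the medians and the 3 ratios moved by less than 1 SD between libraries of a group. That SD includes sham 2 and was 0.149 for the constitutive and 0.252 for the immunoproteasome median. Both medians nevertheless changed sign without sham 2, from -0.10 and -0.19 to 0.02 and 0.02. Leaving out 1 library at a time gave a constitutive median of -0.17 to 0.02, an immunoproteasome median of -0.31 to 0.02, and log2 ratios of -0.05 to 0.06 (Psmb8 to Psmb5), -0.32 to -0.01 (Psmb9 to Psmb6) and -0.18 to 0.06 (Psmb10 to Psmb7). With annotated isoforms only, 29 members could be tested, and the Psmb10 to Psmb7 ratio could not be formed.

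Counts over the whole table moved more, and the cause was not tested. The 464 genes called became 295 with a mean of at least 5 FPKM, 67 with annotated isoforms only, 1429 with sample weights, 1610 without crush 3 and sham 2, 976 after the length correction, and 53 to 1174 with 1 library left out. Of called genes 63.1% were higher after crush, against 51.4% with sample weights, 77.6% with annotated isoforms, 47.5% without crush 3 and sham 2, and 51.7% to 85.3% with 1 library left out. The 15 isoforms called became 7 with no filter, 30 with upper-quartile scaling, 42 with quantile normalization, 1355 with weights, 5 without crush 3 and sham 2, 52 after the length correction, and 0 to 45 with 1 library left out. The 30 genes with isoform differences became 103 with no filter, 4 at 5 FPKM, 639 with weights, 92 without crush 3 and sham 2, and 9 to 70 with 1 library left out.

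Libraries of the same number deviated together for number 1 but not for numbers 2 and 3 (correlations 0.37, -0.31 and -0.49). The numbers were not taken to pair samples, although correlations among 3 libraries a group cannot decide whether they do. Crush 3 and sham 2 deviated together most (0.59). With the replicate number as a block 50 genes (90.0% of them higher), 0 isoforms and 5 genes with isoform differences were called, 0 members and 0 member isoforms were called, the medians stayed at -0.10 and -0.19, and the ratios had exact p of 0.75, 0.75 and 1.0. The block left 4 macrophage markers and 0 neuron markers called.

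With 3 libraries a group, unknown depth and 1 sham library that stands apart, precision is limited: for 5 of the 40 tested members the 95% interval reached beyond a 1.5-fold change.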

Other observations

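Subunits that sit in the core particle in equal numbers were listed at unequal RNA levels. Within the alpha ring the mean over all 6 libraries was lowest for Psma5 (4.55 FPKM) and next lowest for Psma3 (20.7 FPKM), while Psma7 was highest (188 FPKM). Within the beta ring Psmb3 (24.9 FPKM) was lowest and Psmb4 (232 FPKM) highest. Psma5 and Psma3 are among 6 members, with Psmb10, Psmc1, Psme2 and Psme3, for which no isoform with a reference identifier was among the values used here, so that their sums rest on assembled transcripts alone. The part of this in their levels was not tested.

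The isoforms of the ATPase gene Psmc5 traded places in sham 2. Psmc5_j1 had 22.2, 25.6 and 50.7 FPKM in crush 1 to 3, against 17.04, 94.9 and 24.9 FPKM in sham 1 to 3. Psmc5_j4 had 74.6, 72.1 and 63.6 FPKM in crush, against 83.7, 51.7 and 76.8 FPKM in sham. Crush 3 was the crush library nearest to sham 2 for both isoforms. Isoform shifts in sham 2 were not particular to Psmc5. For example, Psmc3_j1 had 3.29 FPKM in sham 2, against 25.3 and 32.2 FPKM in sham 1 and sham 3.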
